A study of Mus musculus with 2 samples.

Results

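Mural cells are the cells wrapped around blood vessels, and 82 of the 8714 nuclei from the mouse vagus nerve ganglia (0.941%) carried their transcripts by the selection used here. A nucleus counted as mural when 6 genes, Rgs5, Notch3, Abcc9, Kcnj8, Cspg4 and Myh11, together had at least 4 UMIs (unique molecular identifiers, each standing for 1 captured RNA molecule) and at least 12 per 10000 of its UMIs, and when 7 endothelial genes, Pecam1, Ptprb, Adgrl4, Cyyr1, Emcn, Flt1 and Cldn5, together had no more than 2. The nuclei were thus chosen by their own transcript levels, and every comparison of them with other nuclei below is a description, with no test.

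The study used single nucleus RNA sequencing to profile the cells of these ganglia, chiefly the sensory neurons, in mice of both sexes. The female library pooled 14 ganglia of 7 mice and the male library 16 ganglia of 8 mice. All animals were C57BL/6J with the genotype Rosa26-floxed-STOP-Cas9-eGFP, bought at 8 to 9 weeks of age per the study's methods and kept on standard chow. All had received AAVrg-Cre, a retrogradely transported adeno-associated virus that carries Cre recombinase, in the liver 4 weeks before the ganglia were taken. In this genotype Cas9 and eGFP are made only in cells that Cre has reached, and no group went without the virus. A feature named EGFP had 0 UMIs in the mural nuclei, and the sources used here do not say from which sequence it was built. As the sequence added to the mouse genome, the study's methods name a human growth hormone poly(A) carried by AAVrg-Cre. Each sex had 1 pooled library, so differences between the sexes cannot be told apart from differences between the libraries, and the spread between animals was not measured.

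Mural cells comprise the smooth muscle cells of arteries and veins, which set vessel diameter through actin and myosin, and the pericytes of capillaries, which share a basement membrane with the endothelium. PDGF-B released by endothelial cells acts on the receptor PDGFRB to recruit mural cells, and Notch ligands on the endothelium act on NOTCH3 in them. Their tone follows membrane potential: potassium channels that open when ATP is low relax them, chloride and calcium currents contract them, and nitric oxide relaxes them through guanylate cyclase, cyclic GMP and the kinase PRKG1. In sensory ganglia they surround the capillaries among the neuron cell bodies.

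The genes of the contractile apparatus are known targets of serum response factor with its coactivator myocardin, which bind a CArG box, a sequence of CC, a run of 6 A or T bases, and GG. Promoter sequences from RefSeq (build GRCm38.p6), reaching from 250 bases before to 50 bases after a gene start, were searched for an exact match. The motif class reads the same on both strands. A match was present in 1.63% of 32851 promoters and in 1.81% of their 27025 genes, and no match says only that these letters were not in the window. Of the 25 genes named below for their high level in mural nuclei, 16 had a promoter in the table and Myom1 had a match. Of the 22 contractile smooth muscle genes, 16 had a promoter and 2 had a match, Myl9 and Ldb3. None of the 11 pericyte genes and none of the 5 genes of the selection with a promoter had one. The windows of Myl9 and Myom1 are printed from 250 to 51 bases before the RefSeq gene start, 5′ to 3′, with the match in capitals, to show the motif in genes whose levels follow. The Myl9 window lies on the plus strand at chr2:156775214-156775413, with the match starting 161 bases before that start, and ends before the GENCODE gene, which begins at 156775420. The Myom1 window lies on the plus strand at chr17:71019307-71019506, inside the GENCODE span of the gene, with the match starting 99 bases before the RefSeq start. The sequences describe the promoters, and binding was not measured.
Myl9: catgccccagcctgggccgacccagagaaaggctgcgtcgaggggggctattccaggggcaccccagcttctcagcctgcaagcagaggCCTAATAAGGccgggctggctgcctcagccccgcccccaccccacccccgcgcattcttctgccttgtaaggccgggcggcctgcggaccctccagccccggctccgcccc
Myom1: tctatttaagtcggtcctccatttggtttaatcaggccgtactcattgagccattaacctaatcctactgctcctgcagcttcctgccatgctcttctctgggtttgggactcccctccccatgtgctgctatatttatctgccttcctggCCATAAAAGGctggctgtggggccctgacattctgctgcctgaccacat

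The female library held 44 mural nuclei of 3791 (1.16%, 95% exact Clopper-Pearson interval 0.845 to 1.56) and the male library 38 of 4923 (0.772%, 0.547 to 1.06). The intervals overlap, and intervals throughout cover counting error only. The female mural nuclei summed to 109691 UMIs, with 1197 to 6605 and a median of 2260.5 per nucleus. The male mural nuclei summed to 110527 UMIs, with 1157 to 22534 and a median of 2137. Whole libraries had medians of 2381 (female) and 2658 UMIs (male), so the mural nuclei were somewhat shallower than the rest. Among nuclei with over 2000 UMIs the mural share was 1.16% (female) and 0.587% (male).

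The library labels were checked with Xist, the RNA that silences an X chromosome, and Tsix, its antisense partner. Xist had 97 UMIs in the female mural nuclei and 0 in the male ones, and Tsix 49 and 0. The Y-linked Ddx3y had 0 female and 6 male UMIs. All 3 genes went with the labels. The libraries shared 8 barcode sequences, and no mural nucleus carried a shared barcode.

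Single mural nuclei differed widely in how many selection UMIs they held. Their rate of selection UMIs ran from 12.1 to 71.9 per 10000 with a median of 34.7, on a median of 7 and at most 42 such UMIs. Exactly 4 UMIs were present in 10 of the nuclei. Just outside, among nuclei with no more than 2 endothelial UMIs, 3 passed the rate with 3 UMIs, and 29 had at least 4 UMIs at rates up to 11.6 per 10000, on a median of 17404 UMIs in all. The endothelial limit removed 30 of the 112 nuclei that passed the mural limits, while 60 of the 82 that stayed had no endothelial UMI, 19 had 1 and 3 had 2. A large part of all nuclei, 7272, had no UMI of the 6 genes.

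**Figure D1:**
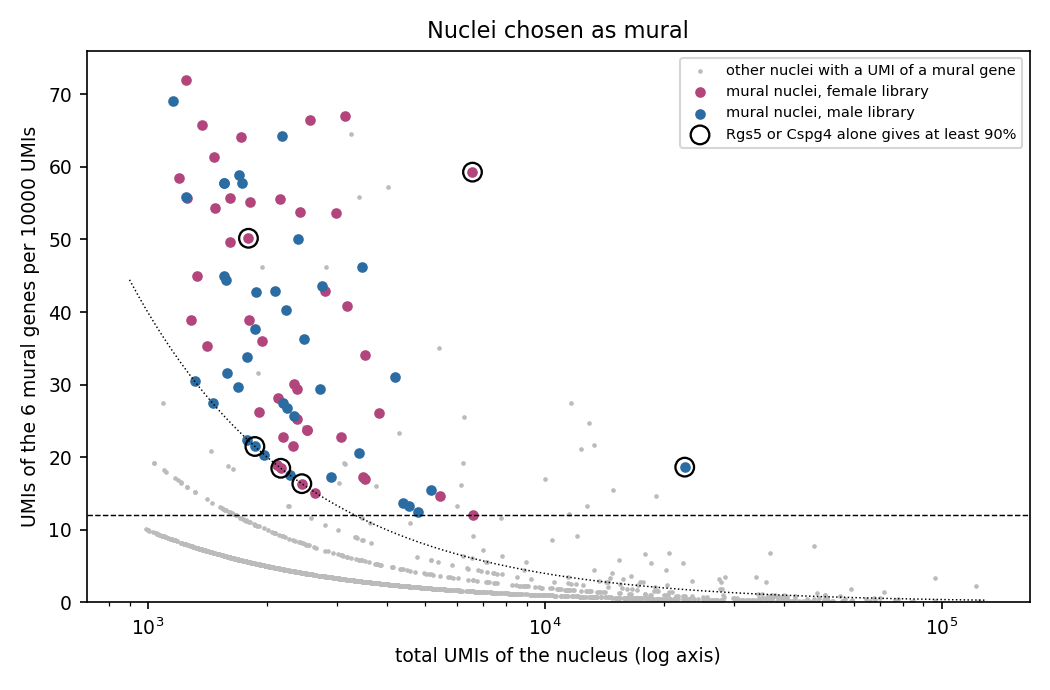
Each point is a nucleus, with its total UMIs across (log axis) and its UMIs of the 6 mural genes per 10000 UMIs up. Coloured points are the 82 mural nuclei by library, and grey points are other nuclei with a UMI of a mural gene. The dashed line marks 12 per 10000 and the dotted curve 4 UMIs of the mural genes. Grey points past both belong to the 30 nuclei with over 2 endothelial UMIs, of which a nucleus at 116 per 10000 lies above the drawn range.

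Detection was sparse in single nuclei. Of the 6 genes, 12 nuclei had 1, 25 had 2, 25 had 3, 14 had 4 and 6 had 5 with a UMI, and no nucleus had all 6. Summed levels are therefore given for each library, as UMIs per 10000 UMIs.

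In 6 nuclei, picked out after the data were seen, Rgs5 or Cspg4 alone gave at least 90% of the selection UMIs, and these stood apart from the other 76. All 6 had 0 UMIs of Pdgfrb and of Acta2, which were found in 47 and 23 of the 82 nuclei. Nuclei in which another gene of the selection was the only one found (4 with Myh11, 2 with Abcc9 and 1 with Notch3) were not set apart. The deepest, a male nucleus with 22534 UMIs, had 41 of Rgs5 beside 92 of Dgki, 53 of Trpm3, 53 of Scn10a (a voltage-gated sodium channel of sensory neurons) and 38 of Egfem1. That nucleus alone gave 20.4% of all male mural UMIs and 39.8% of the male Rgs5 UMIs. A female nucleus with 6579 UMIs had 39 of Rgs5, 100 of Fam155a, 31 of Tafa1, 27 of Greb1l, 16 of Chrna7 and 12 of Pcdh15. Another female nucleus, with 2164 UMIs, had 4 of Rgs5, 31 of Fam155a, 19 of Tafa1 and 10 of Greb1l. A further female nucleus had 9 Rgs5 UMIs among 1794. The remaining pair had 4 Cspg4 UMIs each: a female nucleus had 33 UMIs of Dcn, 28 of Gsn and 21 of Apod, and a male nucleus 6 of Dcn, where Dcn encodes the fibroblast proteoglycan decorin. These 6 nuclei are given no other name, and results that rest on them are given with and without them where both were computed.

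Outside the genes of the selection, the other markers fixed for mural cells were Pdgfrb, Acta2, Tagln and Ebf1, and the levels of all 4 were higher in mural than in other nuclei in both libraries. Pecam1, the defining adhesion molecule of endothelium, had 0 UMIs in the 82 nuclei, but it is among the 7 genes that the selection limited.

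Among the 6 genes that chose the nuclei, Notch3, Rgs5, Myh11 and Abcc9 gave most of the UMIs. These values were fixed by the choice and are shown only as a description. Rgs5, a regulator that shortens G protein signalling and a known pericyte marker, had 110 female UMIs (10.0 per 10000, 95% Poisson interval 8.24 to 12.1) and 103 male UMIs (9.32, 7.61 to 11.3), against 0.190 and 0.209 in all other nuclei. Without the 6 nuclei that stood apart its log2 ratio of mural over other nuclei went from 5.42 to 4.65 (female) and from 5.21 to 4.77 (male). Notch3, the Notch receptor of mural cells, had 106 female UMIs (9.66 per 10000) and 86 male UMIs (7.78), and was found in the largest number of mural nuclei among the 6 genes, 64 of 82. Abcc9 and Kcnj8 encode the regulatory and the pore subunit of an ATP-sensitive potassium channel and lie next to each other on chromosome 6, with 16247 bases between them (mm10). Abcc9 had 66 and 53 UMIs (6.02 and 4.80 per 10000), and Kcnj8 had 10 and 6 (0.912 and 0.543). Cspg4, the NG2 proteoglycan, had 19 and 11 UMIs (1.73 and 0.995 per 10000) and was also present in fibroblast nuclei, at 0.560 and 0.618. Myh11, the smooth muscle myosin heavy chain on chromosome 16, had 84 female UMIs (7.66 per 10000, 6.11 to 9.48) and 63 male UMIs (5.70, 4.38 to 7.29). Both libraries were near 0 for Myh11 in other nuclei, at 0.0635 and 0.0492. Over all 6 genes, the rate was 36.01 per 10000 in female and 29.1 in male mural nuclei.

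Free RNA gives stray UMIs to nuclei that do not make a transcript, so shares of nuclei with a UMI were set beside those in macrophage nuclei, which should lack these genes. The macrophage nuclei numbered 184, with a median of 1864 (female) and 1908 UMIs (male). Notch3 was found in 78.0% of the mural nuclei (95% interval 67.5 to 86.4) and in 0.543% of the macrophage nuclei. Rgs5 was found in 57.3% (45.9 to 68.2) and 4.35%. Myh11 was found in 46.3% and 1.09%. Abcc9 was found in 53.7% of mural nuclei and in 0 of 184 macrophage nuclei, which allows a share of up to 1.63% (3 counts of the total) or 1.98% by the upper end of the 95% Clopper-Pearson interval. All 4 are genes of the selection, which fixed the direction of these differences. After every nucleus was thinned to 1000 UMIs the mural shares were 57.3% for Notch3, 46.3% for Rgs5, 43.9% for Abcc9 and 36.6% for Myh11.

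**Figure D2:**
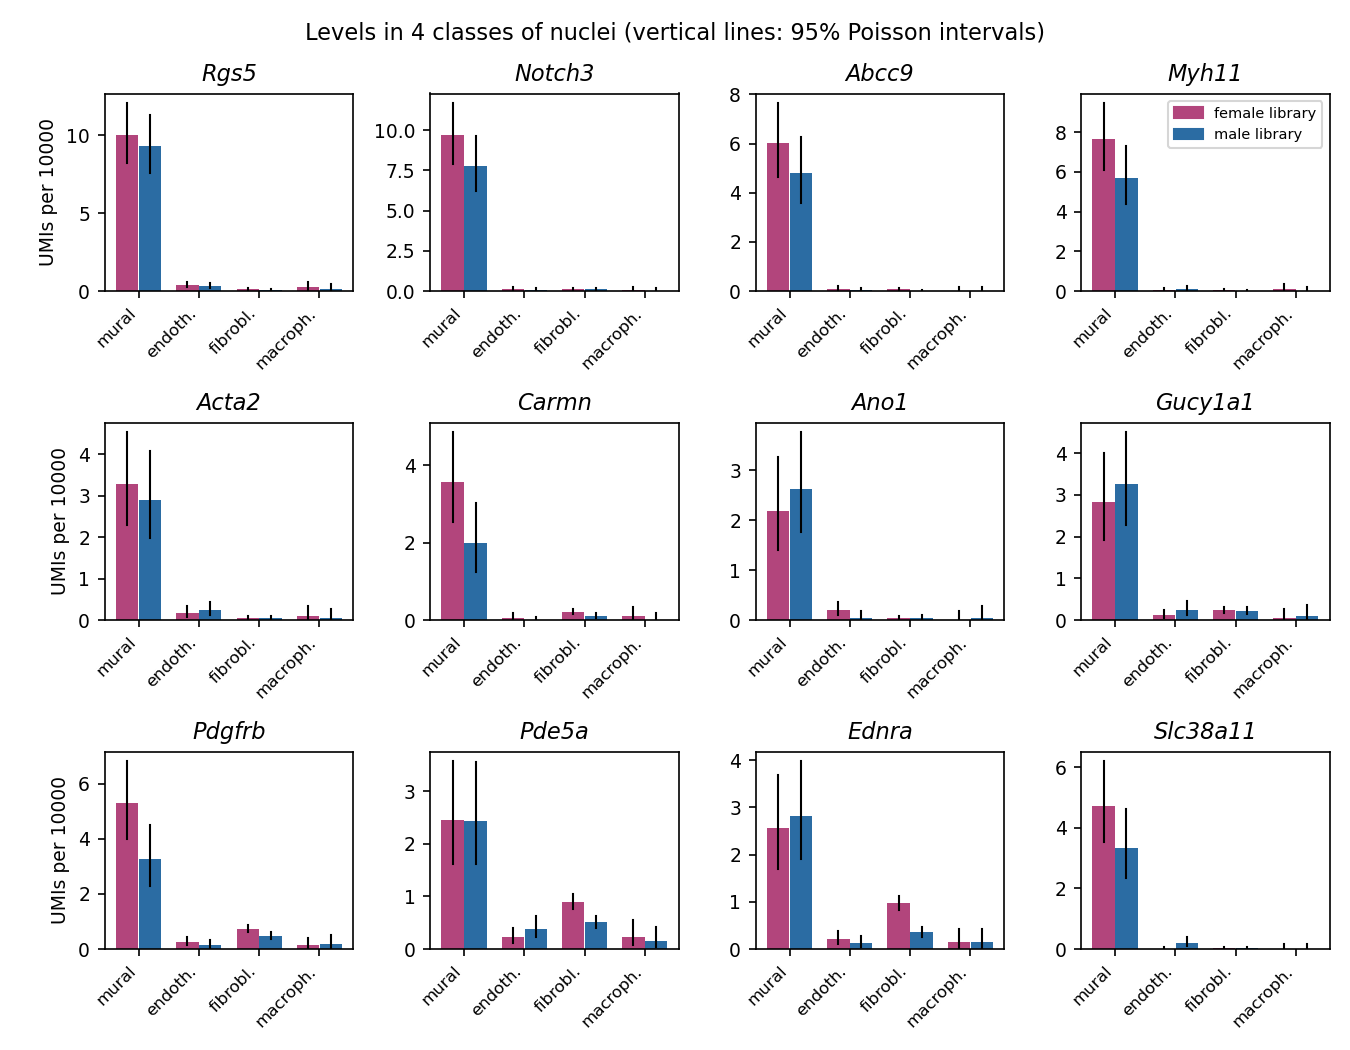
Bars give UMIs per 10000 of 12 genes in mural, endothelial, fibroblast and macrophage nuclei of the female and the male library, and the vertical lines are 95% Poisson intervals. For the genes outside the selection, such as Acta2 and Carmn, the mural bars stand above those of the other 3 classes in both libraries.

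Over all genes outside the selection, 2638 had at least 20 UMIs in the mural nuclei with at least 5 in each library, and 73 of them (2.77%) had a level at least 4 times that of all other nuclei in both libraries. The contrast is the one the nuclei were chosen on, so that count is a description. Log2 ratios of mural over other nuclei compare mural with all other nuclei of the same library. To both levels was added the rate that 0.5 UMIs make up of the summed mural UMIs of that library. The other nuclei, with far more UMIs in all, thus received more than 0.5 UMIs. The addition pulls down ratios of genes that are nearly absent elsewhere. Setting the scale by the median gene in place of total UMIs lowered the median ratio by 0.37 (female) and 0.24 (male), so ratios of about that size were those of a typical well-measured gene. The 25 genes that ranked first by the smaller of their ratios in the 2 libraries are described by role.

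Contractile genes led. Acta2, the smooth muscle actin (chromosome 19), had 36 UMIs in female (3.28 per 10000, 95% Poisson interval 2.30 to 4.54) and 32 in male mural nuclei (2.90, 1.98 to 4.09), against 0.0820 and 0.0649 in other nuclei, and log2 ratios of 4.71 and 4.74. It was found in 28.0% of the mural and 1.63% of the macrophage nuclei. Carmn, a long noncoding RNA of smooth muscle and heart that lies beside the genes of miR-143 and miR-145, had 39 female UMIs (3.56 per 10000, 2.53 to 4.86) and 22 male UMIs (1.99, 1.25 to 3.01). Its log2 ratios were 5.0 and 4.80. The exact interval of the female ratio with nothing added, 5.17 to 6.27, lay above the value with the addition to both levels, which shows its pull. Mylk, the kinase that switches smooth muscle myosin on, had 51 and 24 UMIs (4.65 and 2.17 per 10000) and log2 ratios of 4.71 and 3.88.

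Lmod1, a leiomodin that starts actin filaments, had 23 and 18 UMIs and log2 ratios of 4.59 and 4.31. Myom1, the M-band protein myomesin whose promoter is printed above, had 35 and 25 UMIs and log2 ratios of 4.29 and 4.59. Myocd, the myocardin coactivator itself, had 13 and 9 UMIs and log2 ratios of 3.95 and 3.40. The female and male ratios of these genes lay close to each other. In all, 15 of the 22 contractile smooth muscle genes had enough UMIs, and 9 of the 22 passed the 4-fold limit in both libraries. They were Acta2, Tagln, Lmod1, Mylk, Myocd, Carmn, Tpm2, Cald1 and Synpo2. Of all genes with enough UMIs, 2.77% passed. The median log2 ratio of the list was 2.53 (female) and 2.37 (male), against -0.07 in each for all 26032 genes with a UMI. Tagln, an actin-binding protein, and Tpm2, a tropomyosin, had 7 and 6 UMIs in female and 13 and 16 in male nuclei. Cald1, caldesmon, had 99 and 61 UMIs but was also present in fibroblasts, at 3.38 and 2.96 per 10000 against 9.03 and 5.52 in mural nuclei. Several members of the list were rare: Cnn1, calponin, had 5 and 2 UMIs, Myl9, the regulatory light chain whose promoter is printed above, 9 and 5, and Des, desmin, 1 in each library.

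The genes of ion handling were led by Ano1, a chloride channel opened by calcium, with 24 UMIs in female (2.19 per 10000, 1.40 to 3.26) and 29 in male mural nuclei (2.62, 1.76 to 3.77), log2 ratios of 4.04 and 4.54, and a UMI in 34.1% of the mural nuclei. Cacnb2, a beta subunit of voltage-gated calcium channels, had 117 and 65 UMIs (10.7 and 5.88 per 10000) and log2 ratios of 3.69 and 3.15. Trpc6, a cation channel gated by diacylglycerol, had 14 and 19 UMIs and a log2 ratio of 2.51 in each library. These 3 were the members past 4-fold among the 31 potassium and calcium handling genes measured, 15 of which had enough UMIs. Over all genes with enough UMIs the share was 2.77%. The list medians were 0.47 (female) and 0.19 (male). The median over both libraries, 0.39, was 0.09 with the median gene as the scale and 0.72 against endothelial, fibroblast and macrophage nuclei alone. Cacna1c, the pore of the L-type calcium channel and the gene with the most UMIs on that list, had 188 and 168 UMIs but was common in other nuclei, with log2 ratios of 1.03 and 1.07. Gjc1, the gap junction protein connexin 45, had 16 and 14 UMIs and log2 ratios of 3.50 and 3.62.

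Both subunits of the nitric oxide receptor were high. Gucy1a1, the alpha subunit of soluble guanylate cyclase, had 31 UMIs in female (2.83 per 10000, 1.92 to 4.01) and 36 in male mural nuclei (3.26, 2.28 to 4.51), with log2 ratios of 4.09 and 3.76. Its neighbour on chromosome 3, Gucy1b1, the beta subunit, had 26 and 20 UMIs and log2 ratios of 3.88 and 3.22. Mrvi1, the substrate through which PRKG1 restrains calcium release, had 43 and 24 UMIs and log2 ratios of 4.10 and 3.95. Pde3a, a phosphodiesterase inhibited by cyclic GMP, had 186 and 122 UMIs (17.0 and 11.0 per 10000) against 1.34 and 1.21 in other nuclei, and was also found in endothelial nuclei at 8.42 (female) and 2.84 (male). Of the 22 cyclic nucleotide signalling genes, 14 had enough UMIs and 4 passed 4-fold, beside 2.77% of all genes with enough UMIs. These were Mrvi1, Pde3a, Pde5a, which breaks down cyclic GMP (27 UMIs in each library, log2 ratios 2.51 and 3.23), and Pde8b, which breaks down cyclic AMP (47 and 50 UMIs, 2.59 and 2.75). Prkg1 had more UMIs than any other gene of the list, 542 and 484, yet log2 ratios of only 0.66 and 0.46, since other nuclei held 31.3 and 31.9 per 10000. The median of the list over both libraries, 0.58, was 0.27 with the median gene as the scale and 0.88 under the stricter selection (at least 6 UMIs and 20 per 10000).

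Pdgfrb, the receptor for PDGF-B, had 58 UMIs in female (5.29 per 10000, 4.02 to 6.84) and 36 in male mural nuclei (3.26, 2.28 to 4.51), with log2 ratios of 3.52 and 3.33. Fibroblast nuclei held it as well, at 0.731 and 0.487, and a UMI was present in 57.3% of mural, 14.9% of fibroblast and 3.26% of macrophage nuclei. Of the 18 pericyte genes, 9 had enough UMIs and 4 passed 4-fold, among them Pdgfrb, Gucy1a1 and Gucy1b1. The share over all genes with enough UMIs was 2.77%. The list medians were 1.98 and 1.15. Known small pericyte transcripts were near the detection limit: Higd1b had 2 and 8 UMIs, Cox4i2 5 and 5, Ndufa4l2 9 and 8, and Vtn, the matrix protein vitronectin, 8 and 7. Other nuclei held no more than 0.0144 per 10000 of Higd1b, Cox4i2 or Ndufa4l2. The 6 nuclei that stood apart bear on some of these values, since without them the female log2 ratio of Ndufa4l2 was 2.93 instead of 3.98. Cd248 and Gper1 had 0 UMIs. Ebf1, a transcription factor of the mural lineage and the most abundant of the list in UMIs, had 382 and 275 UMIs but was common elsewhere, with log2 ratios of 1.07 and 0.52.

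Receptors for circulating and local vasoactive signals were sparse. Of 44 such genes only 3 had enough UMIs, 9 had none, and 2 passed 4-fold, beside 2.77% of all genes with enough UMIs. Agtr1a, the angiotensin II receptor, had 23 and 20 UMIs (2.10 and 1.81 per 10000) and log2 ratios of 3.67 and 3.17. Ednra, the endothelin receptor of smooth muscle, had 28 and 31 UMIs (2.55 and 2.80 per 10000) and log2 ratios of 2.94 and 3.41, with 0.972 and 0.350 in fibroblast nuclei. The list medians, 0.45 and -0.12, differed in sign between the libraries.

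The Notch, growth factor and transcription factor lists each held 1 gene past the limit. Among all genes with enough UMIs outside the selection, 73 of 2638 (2.77%) passed. Of 16 Notch pathway genes outside the selection, 4 had enough UMIs, 4 (Notch4, Dll1, Dll4 and Lfng) had none, and Jag1, a Notch ligand, passed with 18 and 12 UMIs and log2 ratios of 2.04 and 2.07. Heyl, a Notch target, had 8 and 6 UMIs and log2 ratios of 3.03 and 2.79, under the UMI minimum. Of 22 PDGF, TGF-beta and angiopoietin pathway genes, 5 had enough UMIs and Ltbp1, which anchors latent TGF-beta in the matrix, passed with 25 and 20 UMIs and log2 ratios of 2.47 and 2.91. Of 22 transcription factor genes of mural cells, 8 had enough UMIs and Prrx1, a homeobox gene of mesenchyme, passed with 46 and 25 UMIs and log2 ratios of 2.57 and 2.64. Fibroblast nuclei held Prrx1 at 2.47 and 1.58 per 10000, beside 4.19 and 2.26 in mural nuclei. The medians of these 3 lists lay between 0.22 and 0.80 in both libraries. Against endothelial, fibroblast and macrophage nuclei alone, the median over both libraries was -0.45 for the growth factor list, the opposite direction. For the transcription factor list it was -0.0047, next to no difference, and for the Notch list 0.04 in place of 0.68. With no endothelial limit the Notch and growth factor medians were 1.12 and 1.18.

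Among 30 basement membrane and matrix genes, 14 had enough UMIs and 4 passed 4-fold, beside 2.77% of all genes with enough UMIs. Lamc3, the laminin gamma-3 chain, had 24 and 10 UMIs and log2 ratios of 4.33 and 3.35. Itga1, the collagen-binding integrin alpha-1, had 57 and 34 UMIs and log2 ratios of 2.83 and 2.41. Itga8, an integrin of contractile cells, had 37 female and 7 male UMIs, with 11 of the 44 in 1 nucleus. Eln, elastin, had 38 and 14 UMIs and log2 ratios of 2.48 and 2.65, and was higher still in endothelial nuclei, at 9.48 and 3.69 per 10000 against 3.46 and 1.27. Dmd, dystrophin, which links the cytoskeleton to laminin, had the most UMIs of the list, 299 and 163, with log2 ratios of 2.10 and 1.44. The list medians were 0.75 and 0.77, and the median over both libraries was -0.20 against endothelial, fibroblast and macrophage nuclei alone.

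The other genes named high have less settled roles in mural cells. Slc38a11, a member of an amino acid transporter family, had 52 UMIs in female (4.74 per 10000) and 37 in male mural nuclei (3.35), was found in 41 nuclei, and had log2 ratios of 5.31 and 3.61. Map3k20, a stress kinase, had 51 and 39 UMIs and log2 ratios of 3.56 and 3.55. Rasl12, a small GTPase of the Ras family, had 27 and 15 UMIs, Steap4, a metalloreductase, 14 in each library, and Aspn, the matrix protein asporin, 17 and 20. Their log2 ratios lay between 3.36 and 4.15 in both libraries. Adap2, which acts on small GTPases of the Arf family, and the antisense RNA over it, Adap2os, had 25 and 28 female and 12 and 9 male UMIs, with log2 ratios of 3.85 and 4.21 (female) and 3.46 and 3.14 (male). Macrophage nuclei held both genes at levels of similar size, higher in 2 of the 4 comparisons: Adap2 was at 2.28 and 1.09 per 10000 in mural and 3.27 and 1.07 in macrophage nuclei, and Adap2os at 2.55 and 0.814 in mural and 2.27 and 1.41 in macrophage nuclei. The 8 macrophage marker genes summed to 0.912 and 0.633 per 10000 in mural nuclei and to 60.6 and 43.8 in macrophage nuclei. Gm30624 had 15 and 12 UMIs in only 12 nuclei.

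**Figure D3:**
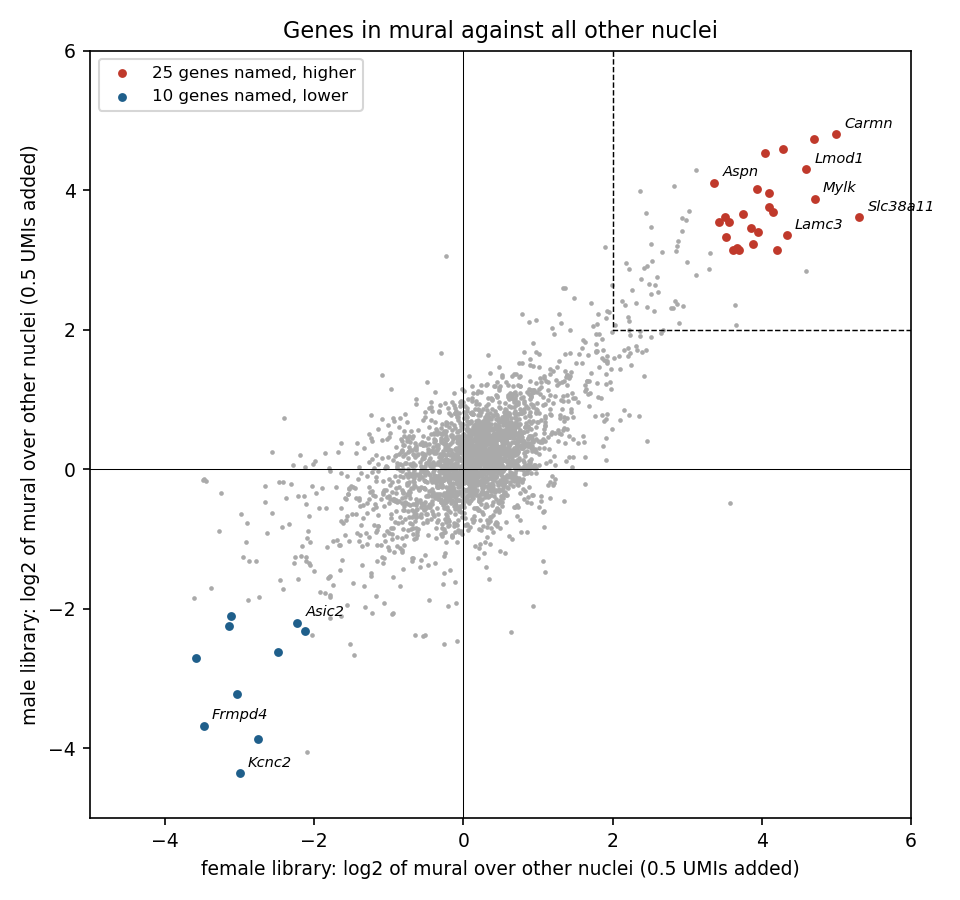
Each point is a gene with at least 20 UMIs in the mural nuclei and at least 5 in each library. Genes of the selection are left out. Axes are log2 ratios of mural over other nuclei, female library across and male library up. The rate of 0.5 UMIs at mural depth was added to both levels. The 25 genes named for high and the 10 named for low levels are coloured, and dashed lines mark 4-fold, past which 73 genes lie in both libraries.

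The 10 genes named for low levels are mostly known from neurons. Frmpd4, a scaffold of synapses, had 7 and 6 UMIs (0.638 and 0.543 per 10000) against 7.59 and 7.48 per 10000 in other nuclei, with log2 ratios of -3.48 and -3.68. Kcnc2, a fast voltage-gated potassium channel, had 3 and 1 UMIs and log2 ratios of -3.00 and -4.35. Schip1 had 19 and 20 UMIs and log2 ratios of -3.04 and -3.22. These 3 were low in nuclei of both libraries. The others were Ncam2, Ralyl, Dpp6, Dlgap1, Hs3st5, Asic2 and Gm49678, with log2 ratios between -2.10 and -3.87. The other nuclei of this comparison include the neurons of the ganglia. Asic2, an acid-sensing channel, had a male log2 ratio of -2.20 that became -3.81 without the 6 nuclei that stood apart. Against endothelial, fibroblast and macrophage nuclei alone, Asic2 and Gm49678 were higher in mural nuclei, with mean log2 ratios of 0.60 and 0.97. Both means include the 6 nuclei that stood apart and were not computed without them, so the sign for Asic2 may rest on those nuclei.

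Markers of other cell types show what else the nuclei held. The 14 endothelial genes outside the selection summed to 3.37 per 10000 in female and 2.17 in male mural nuclei, against 53.4 and 50.5 in endothelial nuclei, with Esam the most abundant and Kdr and Tie1 at 0. The 14 fibroblast genes summed to 24.4 and 11.2 against 53.7 and 47.0 in fibroblast nuclei and 12.5 and 7.78 in all other nuclei, led by Dcn, with 101 and 43 UMIs, and with Cilp at 0. The fibroblast sum in mural nuclei was thus above that of the other nuclei. Of the 101 female Dcn UMIs, 33 were in a single nucleus that stood apart, which also held 28 UMIs of Gsn. The sum was not computed without the nuclei that stood apart. Leaving out nuclei with over 2 UMIs of Pdgfra, Dcn, Lum, Scara5, Abi3bp and Mfap5 together kept 70 of the 82 and gave 71 in place of 73 genes past 4-fold, a contractile median over both libraries of 2.66 in place of 2.67 and a pericyte median of 1.18 in place of 1.56. None of the 14 genes passed 4-fold. The 8 macrophage genes, among which Cd163 and Lyve1 were at 0 and Cx3cr1 the most abundant, were near 0 as given above.

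The 10 Schwann cell genes summed to 16.0 and 15.2 per 10000 in mural nuclei and to 24.9 and 23.0 in other nuclei. The 9 satellite glia genes, led by Apoe, summed to 11.1 and 12.8 against 15.9 and 15.8. The 15 neuron genes, led by Tubb3, a neuronal tubulin, summed to 30.3 and 58.7, against 49.2 and 68.1 in other nuclei and 22.9 and 51.4 in macrophage nuclei. All 3 sums were lower in mural nuclei than in other nuclei, and no gene of the 3 lists passed 4-fold, but against endothelial, fibroblast and macrophage nuclei alone the median of the neuron list was 0.17. The neuron sum was higher in the male library in mural and in macrophage nuclei alike. The male mural sum includes the deepest nucleus, with 53 UMIs of Scn10a and 16 of Tubb3, and was not computed without it. Adipocyte genes, led by Fabp4, summed to 5.47 and 1.81, against 4.94 and 1.18 in other nuclei. The lists of barrier fibroblasts, skeletal muscle, lymphocytes and mast cells, and cerebellar granule cells each summed to no more than 1.27 per 10000 in either library, and the stress and immediate early genes to 1.91 and 3.17, close to the 2.04 and 2.71 of other nuclei.

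**Figure D4:**
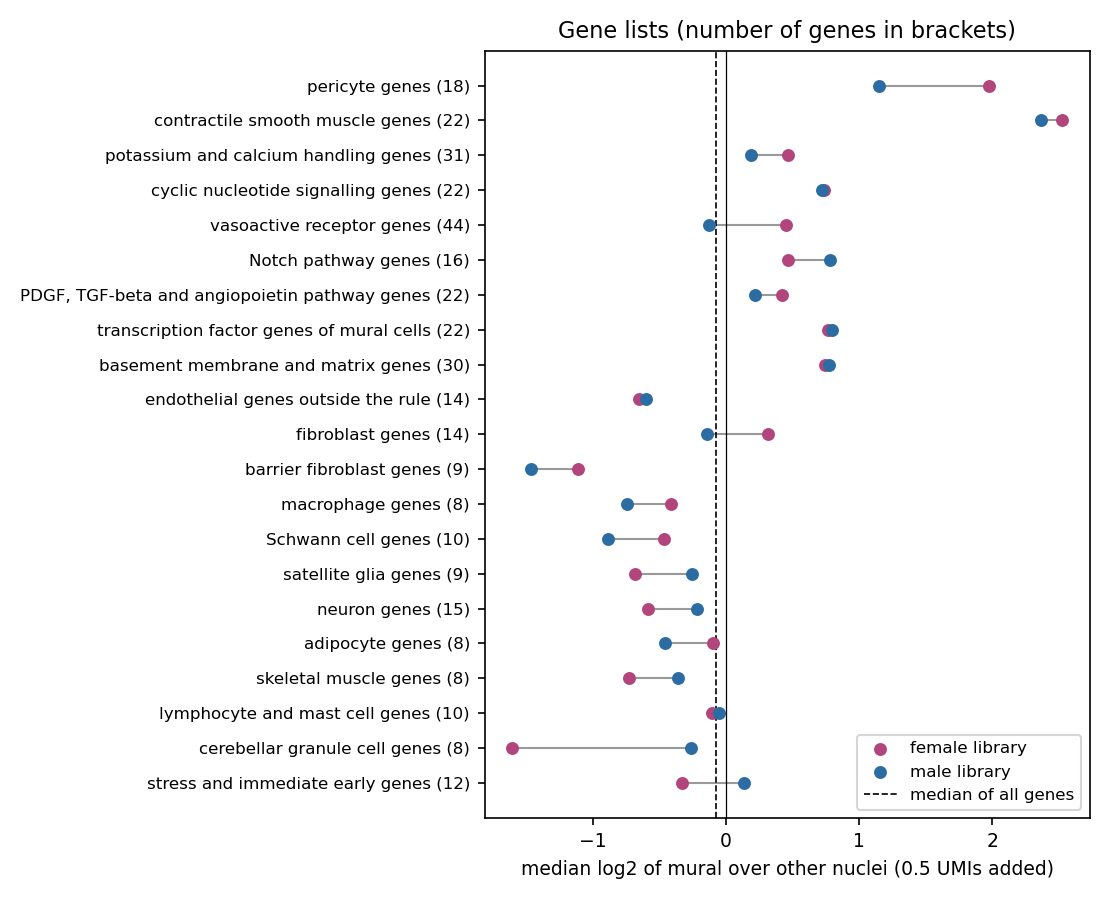
Points give the median log2 ratio of mural over other nuclei of each gene list in the female and the male library. Numbers of genes are in brackets, and the dashed line is the median of all genes with a UMI. The rate of 0.5 UMIs at mural depth was added to both levels. The contractile list lies at 2.53 (female) and 2.37 (male) and the pericyte list at 1.98 and 1.15.

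Smooth muscle and pericyte transcripts were then compared within the 82 nuclei. Nuclei with at least 2 UMIs of Myh11 and none of Abcc9 or Kcnj8 numbered 22 (13 female, 9 male, median 2208.5 UMIs), and are called Myh11 nuclei. Nuclei with at least 2 UMIs of Abcc9 and Kcnj8 and none of Myh11 numbered 27 (14 female, 13 male, median 1783 UMIs), and are called Abcc9 nuclei. Transcripts of both sides were detected in 13 nuclei, those of neither in 13, and 33 of the 82 fell in neither group. None of the 6 nuclei that stood apart was in either. The groups were set by measured values, so the differences are a description.

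Several contractile and calcium handling genes had most of their UMIs in the Myh11 nuclei. Acta2 had 56 UMIs in Myh11 nuclei (11.3 per 10000, 95% Poisson interval 8.52 to 14.6) and 1 in Abcc9 nuclei (0.158, 0.00400 to 0.880). Ctnna3, the alpha-T-catenin of cell junctions, had 136 and 4 UMIs (27.4 and 0.632 per 10000). Kcnab1, a beta subunit of voltage-gated potassium channels, had 163 and 14 (32.8 and 2.21). These genes were found in many nuclei, Acta2 in 17, Ctnna3 in 20 and Kcnab1 in 21 of the 22 Myh11 nuclei. Ryr2, the calcium release channel of the sarcoplasmic reticulum, had 46 UMIs against 2, of which 41 were female. Slc8a1, the sodium-calcium exchanger, had 39 against 3, and Entpd1, an enzyme that breaks down extracellular ATP, 24 against 0. Myom1 had 51 against 4, Sorbs2, an adaptor of actin adhesions, 98 against 10, and the matrix genes Ltbp1 and Thsd4 37 against 2 and 46 against 4. Myocd had 15 against 0, Tagln 16 against 1 and Mylk 48 against 11. The list of contractile smooth muscle genes had a median log2 ratio of Myh11 over Abcc9 nuclei of 2.17.

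Rgs5, a gene of the selection whose level here the choice of nuclei shaped, had 60 UMIs in Abcc9 nuclei (9.48 per 10000) and 3 in Myh11 nuclei (0.604). Pdgfrb had 45 UMIs in Abcc9 nuclei (7.11 per 10000) and 15 in Myh11 nuclei (3.02), a log2 ratio of Myh11 over Abcc9 nuclei of -1.20 with an exact interval from -2.18 to -0.36. The interval lay below 0. Dach1, a transcription factor, had 40 UMIs in 14 Abcc9 nuclei, 20 in each library, against 1 in Myh11 nuclei. Pde8b had 41 against 2, evenly split between the libraries (21 and 20 in Abcc9 nuclei). Grk5, a kinase that desensitizes G protein-coupled receptors, had 37 against 2, and Nckap5 20 against 0 in 10 Abcc9 nuclei.

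Other genes of the Abcc9 side rested on few nuclei or on 1 library. Csmd1 had 183 UMIs in Abcc9 nuclei, 178 of them female, against 8. Gpc5, a heparan sulfate proteoglycan, had 39, of which 38 were female. All 26 UMIs of Cntnap5a were male and in 2 nuclei, and the 22 of Abca6 were female and in 2 nuclei. Frmd5 had 20 UMIs in 6 Abcc9 nuclei, 17 of them male. The pericyte list had a median log2 ratio of Myh11 over Abcc9 nuclei of -1.22. Notch3, also a gene of the selection, was at 10.3 per 10000 in each group (51 and 65 UMIs), from which nothing is read.

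**Figure D5:**
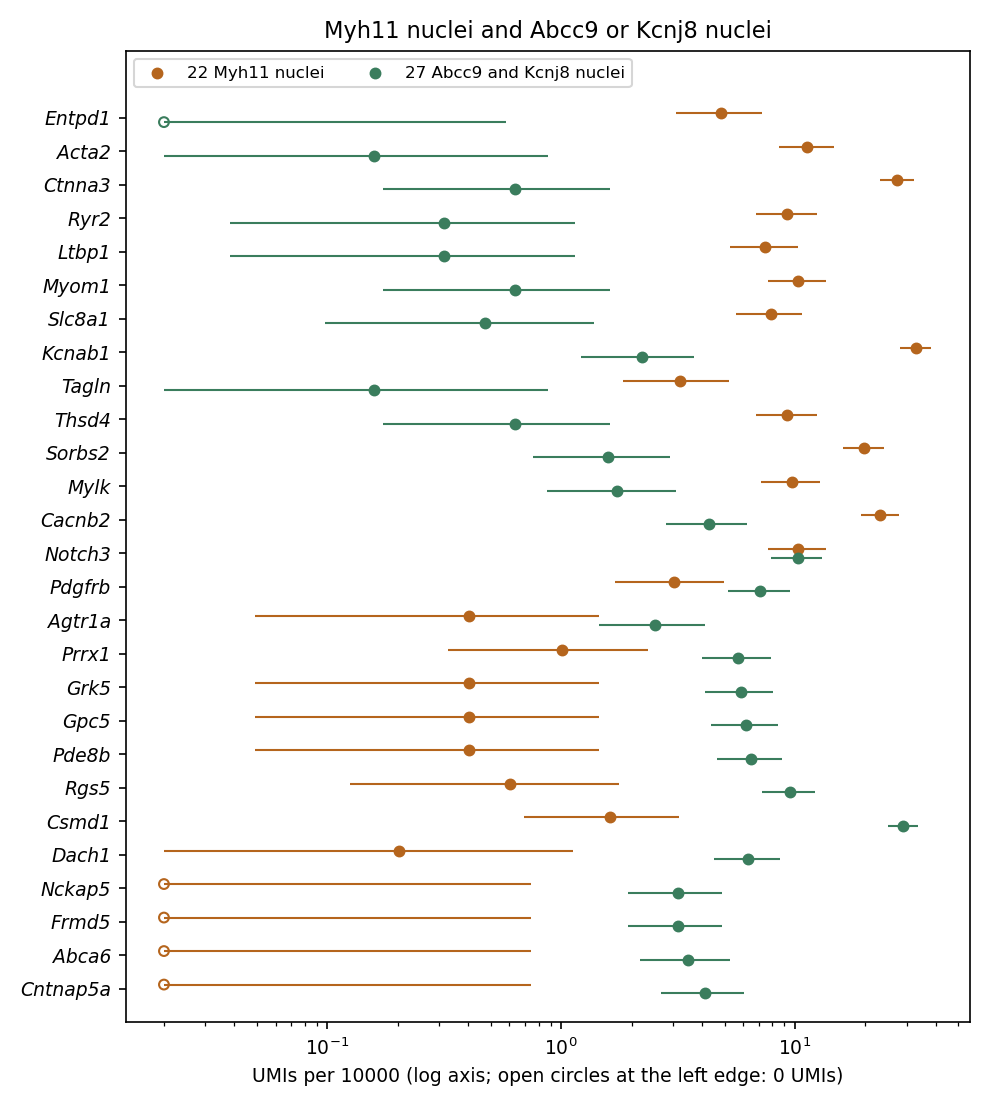
Points give UMIs per 10000 in the 22 Myh11 nuclei and the 27 Abcc9 nuclei on a log axis, with 95% Poisson intervals as lines and open circles at the left edge for 0 UMIs. Acta2 (11.3 against 0.158) and Ctnna3 (27.4 against 0.632) lie apart in one direction and Rgs5 (0.604 against 9.48) in the other, while Notch3 is at 10.3 in both; Rgs5 and Notch3 are genes of the selection.

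Female and male mural nuclei were compared last, with 1 library of each sex and hence no test. Of 1632 genes with at least 30 UMIs in mural nuclei, 302 (18.5%) differed at least 2-fold, 149 higher in the male and 153 higher in the female library, with a median log2 ratio of male over female of -0.01. Apart from Xist and Tsix, most genes named for the largest differences rested on 1 or a few nuclei. Leaving out the 6 nuclei that stood apart left 227 of 1254 genes (18.1%) past 2-fold.

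On the male side, Lrp1b, a large lipoprotein receptor, had 9 female and 123 male UMIs (0.820 and 11.1 per 10000), and 114 of the 132 were in a single nucleus that was not among the 6. Dgki, a diacylglycerol kinase, had 11 and 114 UMIs, a log2 ratio of male over female of 3.31, and Trpm3, a heat-gated cation channel, 25 and 165, a log2 ratio of 2.69. Without the 6 nuclei the ratio of Dgki was 1.27 and that of Trpm3 2.43, with 85 of the Trpm3 UMIs in 1 nucleus. Egfem1 had 0 and 42 UMIs, 38 of them in the deepest nucleus, and without it 0 and 4. Gm26871 went from a log2 ratio of 2.50 to -0.35, Lrfn5 from 3.23 to -0.68, Grip1 from 3.37 to 1.61 and Galnt13 from 2.61 to 1.70. The direction of Gm26871 and Lrfn5 thus depended on the nuclei that stood apart.

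On the female side, Greb1l had 39 female and 1 male UMIs and 2 and 1 without the 6 nuclei. Fam155a, an auxiliary protein of a sodium leak channel, had 170 and 21 UMIs, a log2 ratio of -3.00 that became -0.71, and Tafa1, a secreted chemokine-like protein, 53 and 7 UMIs, a ratio of -2.85 that turned to 1.27. Pcdh7, a protocadherin, and Plcb1, a phospholipase C that releases calcium downstream of G proteins, kept their direction. Pcdh7 had 76 female and 8 male UMIs (6.93 and 0.724 per 10000), with log2 ratios of -3.18 with and -3.07 without the 6 nuclei. Of its UMIs, 24 (28.6%) were in 1 nucleus, and its ratio in the other nuclei of the same libraries was -0.28. Plcb1 had 56 and 10 UMIs (5.11 and 0.905 per 10000), with log2 ratios of -2.44 and -2.10, no more than 8 of its UMIs in 1 nucleus, and a ratio of -0.62 in the other nuclei of the same libraries. Abca6 had 30 and 3 UMIs, of which 21 were in 1 nucleus.

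Ranked again without the 6 nuclei, AY036118, a noncoding RNA, had 187 female and 444 male UMIs, a log2 ratio of 1.41, beside 0.94 in all other nuclei of the same libraries. Atp1b1, the beta subunit of the sodium pump, had 11 and 44 UMIs, a log2 ratio of 2.12 beside 0.78 in other nuclei, and Tspan8, a tetraspanin, 9 and 35, 2.07 beside 1.13. Syt4, a synaptotagmin of neuronal vesicles, had 12 and 43 UMIs, 1.97 beside 0.86. All 4 were higher in the male library outside the mural nuclei as well, whereas 2 others of this ranking were lower there: Ctnnd2, a delta-catenin, at 2.19 in mural and -0.27 in other nuclei, and Trpm3, at 2.43 and -0.65. The Trpm3 value rested largely on 1 nucleus outside the 6, which held 85 UMIs beside 112 male UMIs in all without the 6. Bnc2, a zinc finger protein, had 51 and 54 UMIs with all nuclei and 47 and 8 without the 6, since 45 UMIs were in 1 nucleus. Leading mural genes were mixed in this comparison. Rgs5 was at 10.0 (female) and 9.32 per 10000 (male), and at 6.00 (4.55 to 7.75) and 7.20 (5.52 to 9.23) without the 6 nuclei, so that the order of the libraries turned and the female level fell by more than 1.5 times. Acta2 was at 3.28 and 2.90, and at 3.72 in each library without the 6 nuclei, and Gucy1a1 was at 2.83 and 3.26. The Poisson intervals of these 3 genes overlapped with and without the 6 nuclei. Mylk was at 4.65 per 10000 in female (3.46 to 6.11) and 2.17 in male mural nuclei (1.39 to 3.23), Cacnb2 at 10.7 (8.82 to 12.8) and 5.88 (4.54 to 7.50), and Itga8 at 3.37 (2.37 to 4.65) and 0.633 (0.255 to 1.30). The intervals of these 3 genes did not overlap, and they were picked out after their values were seen. Without the 6 nuclei the intervals of Mylk did overlap, at 5.27 (3.93 to 6.93) and 2.79 (1.79 to 4.15), while Cacnb2, at 12.1 and 7.55, and Itga8, at 3.52 and 0.813, stayed apart. The deepest male nucleus, with 20.4% of the male mural UMIs and none of Acta2, enters the male levels.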

How the data were processed

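Single nucleus RNA was sequenced from 1 female and 1 male library with the 10x Genomics 3′ kit. The authors aligned the reads to mm10 with an added transgene, counted introns with Cell Ranger 7.1.0 (also named in the submitters' processing notes), kept barcodes by DIEM debris score, genes and UMIs, and joined the libraries with normalization for mapped reads. The deposited counts are whole UMIs, pooled in 1 matrix of 32286 features. Per the study's text, Cell Ranger and DIEM also served to take out possible doublets. No further doublets were removed here. Library numbers were matched to sexes by the numbers of nuclei that the study's text gives.

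Mural nuclei were selected as described. The members, gene lists and tests were chosen with earlier results of these data known. Endothelial (327), fibroblast (1117) and macrophage (184) nuclei were chosen by the same form of rule with at most 2 UMIs of the other classes. UMIs were summed per library and class and divided by total UMIs (per 10000). Log2 ratios of mural over other nuclei had the rate of 0.5 UMIs at the summed mural depth of the library added to both levels. Ratios between the sexes and between Myh11 and Abcc9 nuclei had 0.5 UMIs added to each count. Levels have exact 95% Poisson intervals, shares Clopper-Pearson intervals and ratios exact conditional intervals (Python 3.11.15, NumPy 2.4.6, SciPy 1.17.1, pandas 2.3.3), tested on simulated data. With 1 library of each sex no test was run, and nuclei are not replicates. Named genes were the first 25 by the smaller log2 ratio of the 2 libraries (at least 20 UMIs, 5 in each library), the 10 lowest with at least 50 UMIs expected, 8 for each sex and 10 for each side of the Myh11 comparison by the interval bound nearest to 0, and list members. Genes named again without the 6 nuclei that stood apart, and other members of the Myh11 comparison, were chosen after their values were seen. One listed symbol, Trpp2, had no row. Gene positions are from GENCODE vM21. Alternatives were the selection limits, thinning to 1000 UMIs, the reference nuclei, scaling, UMI minimums and each library alone. Some genes that met these rules are not reported here.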

Additional observations from a re-analysis of the deposited data

Results flagged for a closer look

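Pde1c, a phosphodiesterase stimulated by calcium and calmodulin, and Scn10a, a sodium channel of sensory neurons, went in opposite directions in the libraries when mural nuclei were set against all other nuclei. Pde1c had 2 UMIs in female and 25 in male mural nuclei, with log2 ratios of -2.91 (female) and 0.79 (male). Scn10a had 18 and 62 UMIs, with log2 ratios of -1.01 and 0.63. In each gene most UMIs were in 1 nucleus, 74.1% for Pde1c and 66.2% for Scn10a. Without the 6 nuclei in which Rgs5 or Cspg4 alone gave most selection UMIs, the log2 ratios were -2.73 and -1.08 for Pde1c and -0.91 and -1.73 for Scn10a, below 0 in both libraries. The difference between the libraries was not tested.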

How the results depend on the processing

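Selecting on nuclei thinned to 1000 UMIs gave 47 nuclei, 43 of which were among the 82. The count of genes 4-fold higher in both libraries, 73, became 117 with no UMI minimum, 36 with at least 50 UMIs and 112 with no endothelial limit, and lay between 60 and 86 under the other alternatives. The contractile median over both libraries, 2.67, was 2.53 (female) and 2.37 (male) in 1 library alone, 2.46 as a mean over nuclei, 2.37 with the median gene as the scale, 2.27 against endothelial, fibroblast and macrophage nuclei, 2.37 with no endothelial UMI allowed and 2.81 without the 6 nuclei that stood apart. Against those 3 classes 4 lists with a main median further than 0.1 from 0 changed sign. Growth factor pathways went to -0.45, transcription factors to -0.0047 (next to no difference), matrix to -0.20 and neuron genes to 0.17. Asic2 (0.60) and Gm49678 (0.97) changed sign as well, with the 6 nuclei that stood apart included. Sign changes of lists nearer to 0 are counted below. The endothelial list turned to 2.34 with no endothelial limit, and the adipocyte list to 0.15 under thinned selection. With the median gene as the scale the vasoactive receptor list went from 0.05 to -0.25 and the fibroblast list from 0.07 to -0.24, and the stress list went from -0.04 to 0.14 in the male library alone. Genes 2-fold apart between the sexes, 302, became 173 of 703 under the stricter selection (at least 6 UMIs and 20 per 10000) and 39 of 215 with at least 100 UMIs. The causes were not tested. For Myh11 against Abcc9 nuclei, the pericyte median of -1.22 was -0.99 with at least 1 UMI, -1.40 with at least 3, -1.58 with thinned nuclei, and -0.82 and -0.91 in the female and male library alone. The contractile median of 2.17 was 1.78, 2.38 and 1.96 under the first 3 of these and 1.81 in the male library alone. Of 385 values of the 35 named genes under alternatives, 2 changed sign, and of 231 values of 21 lists 22 did, 16 of them in the vasoactive receptor, fibroblast and stress lists, whose medians over both libraries lay within 0.1 of 0. No paired analysis was possible because each sex had 1 library. The leave-out of nuclei, the named-gene alternatives and the single-library values of the Myh11 comparison were added after the data were seen. With 82 nuclei, a gene with few UMIs is limited by counting, and 1 deep nucleus can set its level.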
